A study of Mus musculus with 5 samples.

Results

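Astrocytes clear most of the glutamate that neurons release at synapses. Sodium-coupled transporters carry it into the astrocyte, glutamine synthetase turns it into glutamine that is handed back to neurons, and the remainder is oxidized through glutamate dehydrogenase, while glycolysis, bicarbonate transport and ion pumps pay for and buffer that uptake. The genes described here are 9 that astrocytes use for this work or are known by: the glutamate transporters Slc1a2 and Slc1a3, the enzymes Glul, Glud1, Acsbg1, Aldoc and Aldh1l1, the calcium-binding protein S100b and the bicarbonate cotransporter Slc4a4. They were chosen by gene symbol with earlier results of these data known, as were all gene lists below. Counts of them beside the shares of all tested genes are therefore a description. All 9 were found among the 23361 symbols of the expression tables. They were also among the 12740 genes whose mean reached 1 FPKM and that were tested (FPKM counts fragments relative to transcript length and to sequencing depth).

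Hippocampal RNA was compared between 2 control and 3 Hdac1 cKO libraries of 3-month-old mice, one library per labelled sample. The sample labels call the controls WT. The study describes its controls as mice with the floxed Hdac1 allele on both chromosomes (Hdac1f/f). It made the cKO mice by crossing such mice with Nestin-Cre mice. By that description the floxed allele was shared by both groups, but the Cre status of the controls is not stated. Nestin-Cre is active in neural progenitors and deletes the gene in the neurons and astrocytes that descend from them, whereas microglia keep it. No sample used here is labelled as a control with Cre alone. The question was whether expression of these genes differed in the hippocampus without HDAC1, a histone deacetylase.

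Hdac1, which checks the labels, had 8.95 and 13.1 FPKM in control and 1.95, 3.12 and 3.37 FPKM in cKO libraries (log2 fold change -1.66 ± 0.215 SE, unadjusted p = 5.16e-05, adjusted p = 0.219 in limma). A gene of 98.7% identity over 1978 nucleotides, Gm10093, could take or give Hdac1 reads. Depth, estimated from the size of the smallest FPKM steps in low genes, was 5140000 to 6770000 fragments per library, and 12680 to 12745 genes reached 1 FPKM. The libraries fell into 2 sets by the steps in their low values: in each pair of libraries of the same set 24.6 to 28.4% of low genes shared 1 ratio, against 3.71 to 4.64% in pairs from different sets. Set 1 held control 1 and cKO 1, and set 2 held control 2, cKO 2 and cKO 3. What the sets stand for is not given in the sources used here, so the differences of the 9 genes are also given within each set, and a fit with the set as a block (the set block) is given where it changed the call of a gene whose p is printed or the count of a list. With it, the adjusted p of Hdac1 was 0.00389. Of the 12740 tested genes, 84 (0.659%) had both a fold change of 1.5 or more and an unadjusted p under 0.05, in limma on log2(FPKM + 1), and 1 gene (0.00785%), the small nucleolar RNA gene Snora30, which was named after its values were seen, had a Benjamini-Hochberg adjusted p under 0.05. That last count was 5 (0.0392%) with the set block and 14 (0.110%) with the replicate number as a block (the replicate block), and Hdac1 (adjusted p = 0.0115 with the replicate block) was among them in both. Without the filter on FPKM the count was 24 of 23361 genes, and Hdac1 was not among these (adjusted p = 0.769 in limma).

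The promoters of 4 of the genes are shown because they represent genes with higher values in every cKO library (Slc1a3, Acsbg1 and Glud1) and a gene whose groups overlapped (Glul). Each is the 250 bases before the RefSeq start, read 5′ to 3′ on the gene's strand, from the GRCm38.p6 table, and matched base for base to 1 place in mm9 (NCBIM37), whose coordinates are given. Capitals mark GGGCGG, the core of the GC box bound by Sp-family factors, searched on both strands (CCGCCC on the printed strand is its reverse complement).
Slc1a3, chr15:8660808-8661057, minus strand: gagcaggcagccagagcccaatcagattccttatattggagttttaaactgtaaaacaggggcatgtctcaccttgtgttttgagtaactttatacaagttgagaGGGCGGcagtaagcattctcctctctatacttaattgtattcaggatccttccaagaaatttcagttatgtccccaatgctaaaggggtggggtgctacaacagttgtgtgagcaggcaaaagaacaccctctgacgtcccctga
Acsbg1, chr9:54509693-54509942, minus strand: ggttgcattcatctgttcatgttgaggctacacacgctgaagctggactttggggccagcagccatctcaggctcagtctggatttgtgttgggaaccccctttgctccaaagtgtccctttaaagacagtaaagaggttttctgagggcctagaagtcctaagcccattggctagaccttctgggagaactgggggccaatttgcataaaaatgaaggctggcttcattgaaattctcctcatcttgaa
Glud1, chr14:35123663-35123912, plus strand: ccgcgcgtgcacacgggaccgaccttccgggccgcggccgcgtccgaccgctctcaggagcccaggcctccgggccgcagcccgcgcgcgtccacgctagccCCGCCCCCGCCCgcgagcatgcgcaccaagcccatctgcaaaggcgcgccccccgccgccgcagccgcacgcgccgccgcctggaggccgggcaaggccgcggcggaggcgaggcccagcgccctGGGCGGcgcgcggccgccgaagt
Glul, chr1:155746809-155747058, plus strand: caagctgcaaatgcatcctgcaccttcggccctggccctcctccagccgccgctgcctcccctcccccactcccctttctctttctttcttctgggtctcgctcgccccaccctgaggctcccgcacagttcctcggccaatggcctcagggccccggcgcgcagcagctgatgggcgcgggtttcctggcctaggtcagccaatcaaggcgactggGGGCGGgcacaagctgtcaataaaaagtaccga
The Glud1 promoter had 3 matches and a GC content of 82%, the Slc1a3 and Glul promoters had 1 match each at 44.8% and 64.8% GC, and the Acsbg1 promoter had 0 at 48.4% GC. Of the 11 promoters listed for the 9 genes, 6 held the motif, against 32.7% of all 32851 promoters in the table and 57.5% of the 12197 promoters of tested genes. Some of the 11 lay far from the gene start in the mm9 coordinates given below. The distance was 47779 nucleotides for the only Slc1a2 window, 64366 for the only Aldh1l1 window and 141148 for a Slc4a4 window. These are matches of letters in a fixed window and carry no measurement of binding.

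All 9 genes were expressed in every library, from 31.2 FPKM upward. Mean levels over the 5 libraries were, in FPKM, 1348 for Glul, 1021 for Aldoc, 837 for Slc1a2, 290.1 for Slc1a3, 166 for Glud1, 141 for S100b, 104 for Acsbg1, 36.7 for Slc4a4 and 31.7 for Aldh1l1. The ranges of neighbors in that order did not overlap, except for Glud1 (151 to 174 FPKM) and S100b (129 to 152 FPKM). Glul ranked between 33 and 36 among all genes in each library, Aldoc between 48 and 58 and Slc1a2 between 65 and 80, whereas Aldh1l1 ranked between 2571 and 2699. Summed over the 9 genes, the level was 3911 and 3878 FPKM in control and 3996, 4032 and 4059 FPKM in cKO libraries. As a share of a library's total FPKM the groups overlapped, at 0.671 and 0.686% in control and 0.628, 0.688 and 0.697% in cKO libraries, cKO 1 being the lowest. Counting error, worked out for 1 kilobase of transcript, was small beside these levels. Aldh1l1, the lowest, had about 164 fragments per kilobase in its shallowest library (7.81% for that kilobase), and Glul had 6813 (1.21%). Their longest transcripts have 4175 and 2792 nucleotides, so the counting error of the whole gene is smaller.

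**Figure D1:**
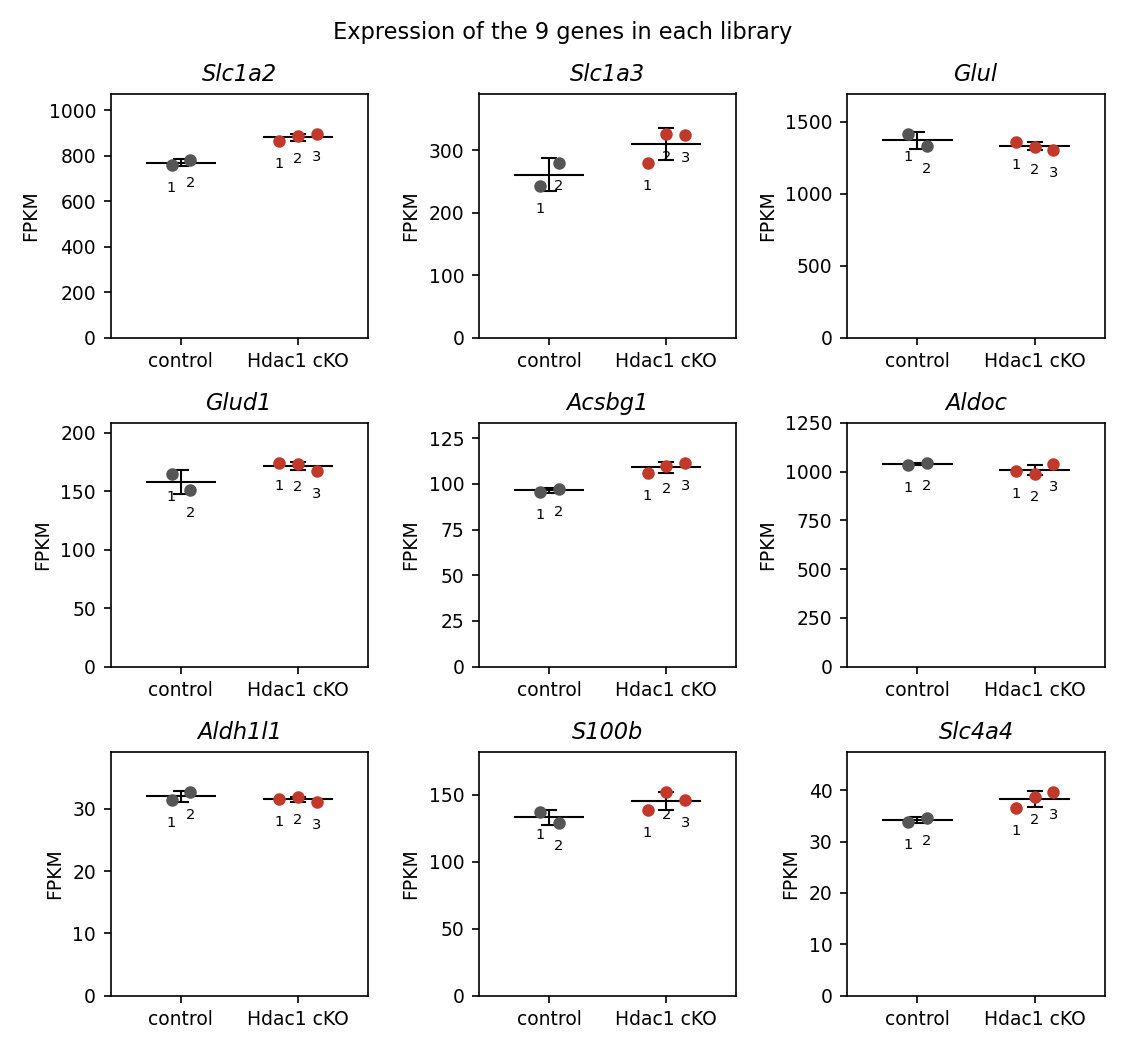
FPKM of each of the 9 genes (y axes, each from 0) in the 2 control libraries (gray points) and the 3 Hdac1 cKO libraries (red points), with replicate numbers; horizontal lines are group means and error bars are 1 SD. All cKO points lie above both control points for Slc1a2, Slc1a3, Glud1, Acsbg1, S100b and Slc4a4, whereas the groups overlap for Glul, Aldoc and Aldh1l1.

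Between genotypes, 6 of the 9 genes had a higher value in every cKO library than in either control, where 11.0% of all tested genes did. None of the 9 had every cKO value below both controls, where 9.41% of tested genes did. The count of 6 depended on how the libraries were scaled. It was 5 with median-ratio size factors (10.1% of tested genes) and 3 with quantile normalization (10.4%), namely Slc1a2, Acsbg1 and Slc4a4. It was 0 when every library was rescaled to a common total (4.30%), which lowered cKO 1, the library with the highest total FPKM. The single RNA Rmrp held 10.7% of that total, and was the highest gene in the other libraries too (9.05% in control 1, 7.30% in control 2, 6.79% in cKO 2 and 7.40% in cKO 3). Every cKO library was below both controls for Aldh1l1 and Aldoc under the first 2 of these scalings (10.5% and 9.72% of tested genes), and for Glul under the third (15.5%). The differences were small: the largest was 18.6%, and 0 of 9 had an unadjusted p under 0.05, against 2.37% of tested genes in the higher and 1.99% in the lower direction. None passed the fold change threshold, and limma's adjusted p was between 0.955 and 0.989 for all 9. The median log2 fold change of the 9 was 0.13, against 0.01 over all tested genes, and it was 0.06 against -0.05 with the common total. In bulk tissue, a change in the number of astrocytes and a change in RNA per astrocyte cannot be told apart.

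Slc1a2 encodes GLT-1, the main glutamate transporter of the forebrain, and lies at chr2:102498816-102630941 on the plus strand (mm9). It had 758 and 781 FPKM in control and 865, 887 and 895 FPKM in cKO libraries. All 3 cKO libraries were above both controls, by more than the spread within either group (770 ± 16.3 SD, n = 2, and 882 ± 15.4 SD, n = 3). The cKO level was 14.6% higher (95% interval -1.87 to 33.9%; log2 fold change 0.20 ± 0.0974 SE; unadjusted p = 0.0774, adjusted p = 0.955). Within set 1 the log2 difference was 0.19 and within set 2 it was 0.19. The log2 fold change was smaller with quantile normalization (0.10, unadjusted p = 0.255 in limma) and with the common total (0.13, unadjusted p = 0.302). With size factors it was 0.18.

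Slc1a3 encodes GLAST, the transporter of Bergmann glia and radial glia as well as of hippocampal astrocytes, at chr15:8584124-8660764 on the minus strand. Its values were 242 and 279 FPKM in control and 280, 325 and 323 FPKM in cKO libraries. The groups only just did not overlap, since control 2 and cKO 1 were nearly equal, and the libraries of set 2 were higher than those of set 1 in both genotypes. The difference, 18.6% (95% interval -1.12 to 42.4%; log2 fold change 0.25 ± 0.114 SE; unadjusted p = 0.0625), was the largest of the 9. Without control 1 it was not: its log2 fold change was then 0.14, below those of 4 others, the highest of which was Glud1 at 0.19. Within sets it was 0.21 and 0.22 on the log2 scale. With each other library left out it was 0.21 to 0.35, and its unadjusted p was 0.0239 without cKO 1, 0.151 without cKO 2 and 0.169 without cKO 3. Leaving out a control leaves 1 control library. For the genes below, p-values without a control therefore rest on the spread of the cKO libraries alone.

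With the set block, the unadjusted p fell under 0.05 for 3 of the 9 genes, where 5.32% of all tested genes had such a p in the higher direction. These were Slc1a3 (unadjusted p = 0.00857, adjusted p = 0.455), Slc1a2 (unadjusted p = 0.0222, adjusted p = 0.497) and Acsbg1 (unadjusted p = 0.0271, adjusted p = 0.497). Over all alternatives the adjusted p was 0.384 or more for Slc1a3 and 0.450 or more for Slc1a2 and Acsbg1. The ratio of Slc1a2 to Slc1a3 within a library, which multiplying a library by a constant leaves as it is, was 3.13 and 2.80 in control and 3.09, 2.72 and 2.77 in cKO libraries. The groups overlapped, and the mean log2 ratio differed by -0.05 (two-sided exact permutation test, p = 0.5; with 10 assignments the smallest possible p is 0.1). The ratio was higher in set 1 than in set 2 for both genotypes, which the permutation test does not take into account. The log2 ratio differed by -0.018 within set 1 and -0.027 within set 2. By contrast, Slc1a1, the glutamate transporter of neurons, had 36.5 and 45.5 FPKM in control and 35.2, 45.9 and 44.4 FPKM in cKO libraries, with overlapping groups (log2 fold change 0.03, below 0 with the set block).

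**Figure D2:**
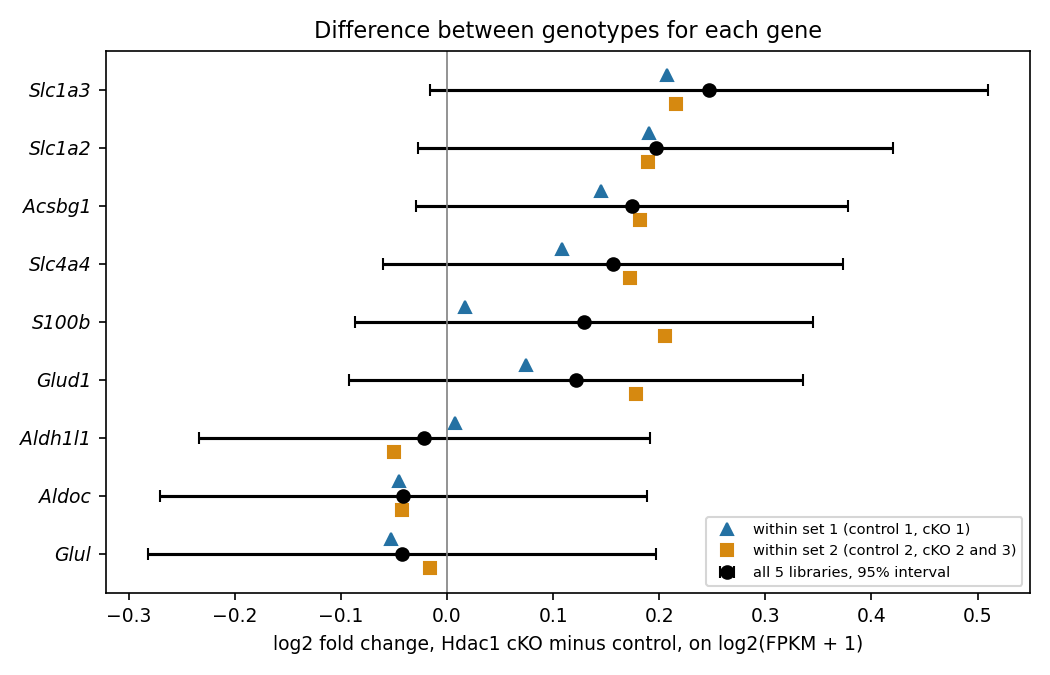
Log2 fold change (x axis, Hdac1 cKO minus control, on log2(FPKM + 1)) of each gene in all 5 libraries (black points, bars are 95% intervals from limma), within set 1 (blue triangles) and within set 2 (orange squares). Every interval includes 0, and Slc1a3, Slc1a2, Acsbg1, Slc4a4, S100b and Glud1 lie above 0 within both sets.

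Glul encodes glutamine synthetase, which in the brain is concentrated in astrocytes and forms glutamine from glutamate and ammonia (chr1:155747074-155756853, plus strand). It was the most abundant of the 9, with 1413 and 1331 FPKM in control and 1362, 1325 and 1307 FPKM in cKO libraries. The groups overlapped, and the log2 fold change was -0.04 (95% interval -0.28 to 0.20; unadjusted p = 0.692), with -0.05 within set 1 and -0.02 within set 2. A pseudogene, Glns-ps1, is 96.8% identical to Glul over 1126 nucleotides and could exchange reads with it. Glul made up 36.1 and 34.3% of the summed FPKM of the 9 genes in control and 34.1, 32.9 and 32.2% in cKO libraries. The share was lower in every cKO library than in either control, although cKO 1 and control 2 differed by little. The sum it is taken of holds the 6 genes that were higher in every cKO library, so it can fall without a change in Glul. Such a share was not computed for other genes.

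Glud1, the mitochondrial glutamate dehydrogenase that feeds glutamate carbon into the citric acid cycle (chr14:35123913-35158330, plus strand), had 165 and 151 FPKM in control and 174, 174 and 168 FPKM in cKO libraries. Every cKO value was above both controls, cKO 3 by only a little. The difference was 8.79% (95% interval -6.19 to 26.2%; unadjusted p = 0.227), and on the log2 scale it was 0.07 within set 1 and 0.18 within set 2. The log2 fold change, 0.12 in all 5 libraries, was 0.19 without control 1 and 0.06 without control 2. It was 0.055 with quantile normalization, 0.055 with the common total and 0.11 with size factors.

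Of 31 listed transporters and enzymes of the glutamate-glutamine cycle, 27 were tested, 1 had an unadjusted p under 0.05 in the higher and 1 in the lower direction (against 2.37% and 1.99% of all tested genes), and the median log2 fold change was -0.03. With the set block it was 2 in each direction (against 5.32% and 4.02%). The higher one was Slc7a11, the cystine-glutamate exchanger that exports glutamate from astrocytes in return for cystine. It rose from 12.3 and 12.7 to 18.3, 17.0 and 17.6 FPKM in the cKO, a 37.9% difference with well separated groups (log2 fold change 0.46 ± 0.101 SE; unadjusted p = 0.00173, adjusted p = 0.955). The lower one was Slc17a6, a vesicular glutamate transporter of subcortical neurons, which fell from 6.08 and 6.09 to 3.94, 4.51 and 2.62 FPKM (log2 fold change -0.62, unadjusted p = 0.0104, adjusted p = 0.955; unadjusted p = 0.0538 without the filter on FPKM). Slc17a7, the vesicular transporter of hippocampal excitatory neurons, had overlapping groups at 300.4 to 424 FPKM. Slc38a1, a glutamine carrier of neurons, was below both controls in every cKO library (15.6 and 15.5 against 14.2, 13.1 and 13.4 FPKM; unadjusted p = 0.105). Slc38a3, the carrier through which astrocytes release glutamine, had 24.0 and 22.7 FPKM in control and 22.3, 27.6 and 31.4 FPKM in cKO libraries, and differed by -0.10 within set 1 and 0.36 within set 2 on the log2 scale. The aspartate aminotransferases Got1 (90.2 to 111 FPKM) and Got2 (71.5 to 86.7 FPKM) overlapped between groups, with log2 fold changes of -0.15 and -0.08. Got1 was lower within both sets (-0.20 and -0.15), and its unadjusted p was 0.0354 with the set block (adjusted p = 0.498 in limma).

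Slc4a4 encodes the electrogenic sodium bicarbonate cotransporter NBCe1, which counters the acid load of glutamate uptake (chr5:89315843-89668678, plus strand). Values were 33.8 and 34.6 FPKM in control and 36.5, 38.7 and 39.6 FPKM in cKO libraries. All cKO values were above both controls. The difference was 11.5% (95% interval -4.10 to 29.5%; unadjusted p = 0.135), or 0.11 within set 1 and 0.17 within set 2 on the log2 scale. The neuronal relative Slc4a10 overlapped between groups (39.0 to 48.8 FPKM; log2 fold change -0.02).

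Among 19 genes of ion and pH support, 18 were tested, 1 passed an unadjusted p of 0.05 in each direction (2.37% of all tested genes in the higher and 1.99% in the lower), and the median log2 fold change was -0.06. Car2, a carbonic anhydrase of oligodendrocytes and other glia, was at 133 and 123 FPKM in control and 139, 161 and 157 FPKM in cKO libraries (log2 fold change 0.24, unadjusted p = 0.0468, adjusted p = 0.955). Its unadjusted p was 0.0548 to 0.215 under the other scalings and 0.0642 to 0.229 without control 1, control 2, cKO 2 or cKO 3 in turn. The potassium channel gene Kcnj10 overlapped between groups (12.9 and 12.8 against 14.6, 11.1 and 13.3 FPKM). Among the genes above an unadjusted p of 0.05, the lowest p was that of Fxyd1, which encodes a sodium pump regulator (64.9 and 57.4 against 49.3, 61.0 and 50.2 FPKM; unadjusted p = 0.154).

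Acsbg1 encodes an acyl-CoA synthetase that activates very-long-chain fatty acids (chr9:54452684-54509677, minus strand). It had 95.5 and 97.4 FPKM in control and 106, 110 and 111 FPKM in cKO libraries, a tight pair of groups with no overlap (96.5 ± 1.34 SD, n = 2, and 109 ± 2.89 SD, n = 3). The difference was 12.8% (95% interval -2.04 to 29.96%; unadjusted p = 0.0844), with 0.15 within set 1 and 0.18 within set 2 on the log2 scale. Other acyl-CoA enzymes did not pass: of 13 listed genes 12 were tested, 0 had an unadjusted p under 0.05 in either direction, and the median log2 fold change was 0.03. Acss1, the mitochondrial acetyl-CoA synthetase, had 15.6 and 17.1 FPKM in control and 17.6, 19.8 and 19.7 FPKM in cKO libraries (unadjusted p = 0.0931). Its cytosolic counterpart Acss2 (20.4 and 18.8 against 20.9, 21.3 and 25.9 FPKM; unadjusted p = 0.149) and Acsl6 (94.99 and 101 against 102, 105 and 116 FPKM; unadjusted p = 0.236), which activates long-chain and polyunsaturated fatty acids, also had every cKO value above both controls, so that 3 of the 12 did (11.0% of all tested genes). Acsf2 was below both controls in every cKO library (3.40 and 3.16 against 2.72, 2.76 and 2.41 FPKM; unadjusted p = 0.116; 9.41% of all tested genes were), and Acsl3 overlapped (76.6 to 83.4 FPKM).

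Aldoc encodes aldolase C, the brain isozyme of the glycolytic aldolase (chr11:78136470-78141283, plus strand). It had 1034 and 1043 FPKM in control and 1002, 988 and 1038 FPKM in cKO libraries. The groups overlapped, with a log2 fold change of -0.04 (95% interval -0.27 to 0.19; unadjusted p = 0.691) and -0.04 within each set. With quantile normalization the log2 fold change of Aldoc was -0.14 (unadjusted p = 0.129 in limma). With the common total it was -0.11 (unadjusted p = 0.384). Aldoa, the general isozyme, had 1138 and 1185 FPKM against 1077, 1047 and 1158 FPKM. The ratio of Aldoc to Aldoa was 0.908 and 0.880 in control and 0.931, 0.944 and 0.897 in cKO libraries, with overlapping groups (log2 difference 0.05, exact permutation p = 0.3).

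Along the route from glucose to lactate, 16 of 18 listed genes were tested, 1 had an unadjusted p under 0.05 in each direction (higher in 2.37% and lower in 1.99% of all tested genes), and the median log2 fold change was -0.03. Slc2a1, the glucose transporter of the blood-brain barrier and astrocytes, fell from 24.8 and 25.3 to 20.5, 18.8 and 22.7 FPKM (log2 fold change -0.27, unadjusted p = 0.0413, adjusted p = 0.955; 0.0726 to 0.136 unadjusted without either control, cKO 1 or cKO 2). Slc16a7, the lactate and pyruvate carrier of neurons, rose from 5.22 and 6.70 to 7.59, 7.58 and 7.51 FPKM (log2 fold change 0.31, unadjusted p = 0.0462, adjusted p = 0.955). Without control 1 its log2 fold change was 0.15 (unadjusted p = 0.362), and without any 1 cKO library the unadjusted p was 0.0773 to 0.0905. Hexokinase Hk1 was below both controls in every cKO library (64.0 and 70.1 against 55.6, 53.9 and 62.2 FPKM; unadjusted p = 0.0617, and 0.0185 with the set block). Ldhb, the lactate dehydrogenase subunit more abundant in neurons, overlapped (235 and 251 against 201, 222 and 239 FPKM; unadjusted p = 0.216, and 0.0398 with the set block). With that block, 1 gene of this route was higher and 3 were lower at an unadjusted p under 0.05, against 5.32% and 4.02% of all tested genes, and the adjusted p was 0.482 for Hk1 and 0.517 for Ldhb.

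Aldh1l1 encodes the cytosolic formyltetrahydrofolate dehydrogenase, a folate enzyme widely used as an astrocyte marker (chr6:90436421-90550197, plus strand). It was the least abundant of the 9, with 31.4 and 32.7 FPKM in control and 31.6, 31.9 and 31.2 FPKM in cKO libraries. The log2 fold change was -0.02 (95% interval -0.23 to 0.19; unadjusted p = 0.821), with 0.01 within set 1 and -0.05 within set 2. Its exons overlap those of Gm15756 on the opposite strand by 499 of 4512 nucleotides; those of Slc1a2 overlap Gm13872 by 189 of 13153 and those of Glul overlap 5830403L16Rik by 67 of 3329, so reads there may be shared. Its mitochondrial relative Aldh1l2 was near 1 FPKM (0.722 and 0.940 against 0.798, 1.21 and 1.02 FPKM) and was not tested. Of 18 listed folate and one-carbon genes, 17 were tested, 0 had an unadjusted p under 0.05 in the higher and 1 in the lower direction (2.37% and 1.99% of all tested genes), with a median log2 fold change of 0.01. The set block gave 1 in each direction (5.32% and 4.02%). The gene that was lower without the block was Shmt2, the mitochondrial serine hydroxymethyltransferase, which fell from 6.23 and 6.20 to 4.57, 3.99 and 5.27 FPKM (log2 fold change -0.37, unadjusted p = 0.0282, adjusted p = 0.955; 0.0768 to 0.0940 unadjusted without either control or without cKO 2). The cytosolic Shmt1 (2.17 and 2.15 against 1.25, 1.53 and 1.87 FPKM; unadjusted p = 0.0852) was lower and the mitochondrial Mthfd2 (1.68 and 2.15 against 2.66, 2.76 and 2.42 FPKM; unadjusted p = 0.0667) was higher in every cKO library, neither past the threshold.

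S100b encodes a calcium-binding protein that astrocytes hold and secrete, and which some oligodendrocytes also express (chr10:75716598-75723904, plus strand). It had 137 and 129 FPKM in control and 139, 152 and 147 FPKM in cKO libraries. Every cKO value was above both controls, but cKO 1 and control 1, both of set 1, were nearly equal. The difference was 9.35% (95% interval -5.83 to 27.0%; unadjusted p = 0.206), and on the log2 scale it was 0.02 within set 1 and 0.21 within set 2.

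The S100 list held 15 genes, among them the binding protein S100pbp and the receptor Ager. Of its 8 tested genes all 8 had a positive log2 fold change, where 53.7% of all tested genes did, and also under each of the 3 other scalings (37.4 to 51.4% of all tested genes), with a median of 0.22 (0.16 to 0.20 under those scalings). In 4 of the 8, every cKO value was above both controls (11.0% of all tested genes), and 2 had an unadjusted p under 0.05 in the higher direction (2.37%), or 3 with the set block (5.32%). S100a10, the annexin partner p11, rose from 46.2 and 55.6 to 69.5, 82.8 and 72.1 FPKM (log2 fold change 0.55 ± 0.122 SE, unadjusted p = 0.00191, adjusted p = 0.955). It differed by 0.58 within set 1 and 0.47 within set 2. S100a16 rose from 87.7 and 78.6 to 96.5, 95.8 and 99.2 FPKM (log2 fold change 0.22, unadjusted p = 0.0447, adjusted p = 0.955). Its unadjusted p was 0.0670 to 0.208 under the other scalings, and 0.0700 to 0.287 without control 2 or any 1 cKO library. S100a6 had 28.2 and 25.2 FPKM against 32.6, 31.1 and 30.7 FPKM (unadjusted p = 0.0502). In the fit with the set block its unadjusted p was 0.00918 (limma's adjusted p = 0.455). S100a1 overlapped between groups (124 to 179 FPKM).

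**Figure D3:**
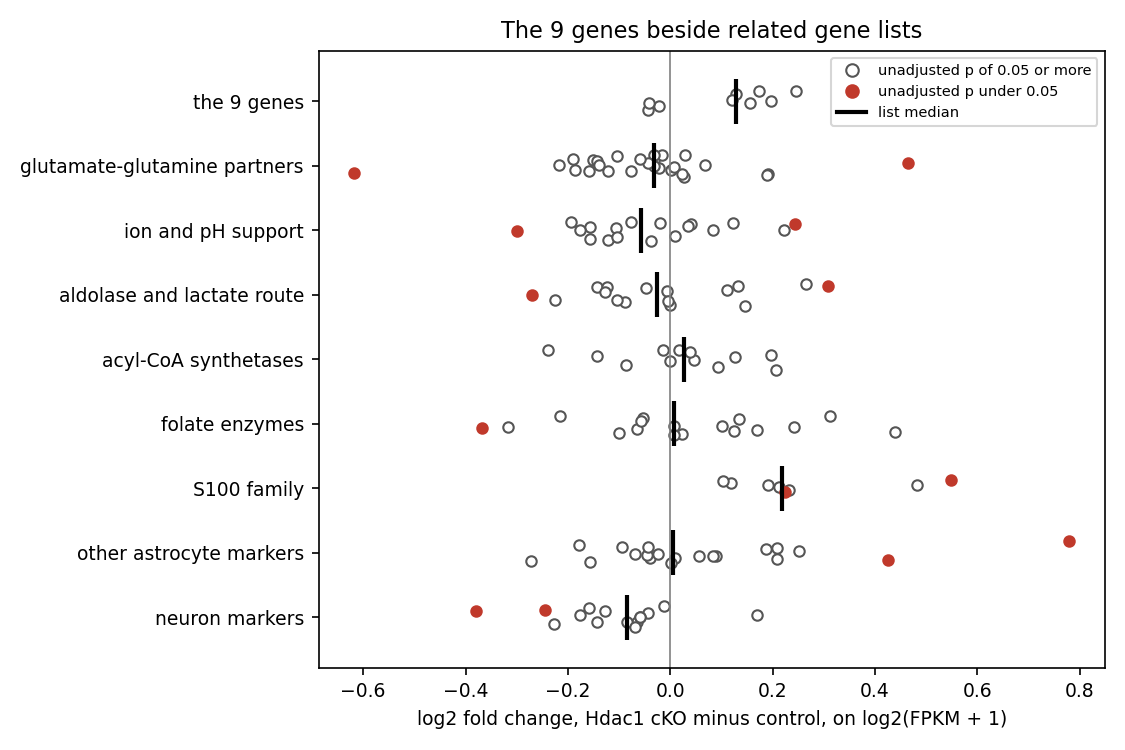
Log2 fold change (x axis, Hdac1 cKO minus control, on log2(FPKM + 1)) of each tested gene, with the 9 genes in the top row and related lists below; red points have an unadjusted p under 0.05 in limma, open points do not, and black bars are list medians. The 9 genes lie between -0.04 and 0.25, and the medians of the other lists run from -0.08 for neuron markers to 0.22 for the S100 family.

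Of 20 other astrocyte markers, all tested, 2 had an unadjusted p under 0.05 in the higher and 0 in the lower direction (2.37% and 1.99% of all tested genes), and the median log2 fold change was 0.01. Every cKO value was above both controls for 5 (11.0% of all tested genes) and below both for 2 (9.41%). With the set block, 4 had an unadjusted p under 0.05 in the higher direction (5.32% of all tested genes). Their summed level was 2417 to 2420 FPKM in control and 2535 to 2674 FPKM in cKO libraries. Without Aqp4 and Gfap, a choice made after the values were seen, the sum overlapped between groups, at 2056 and 2099 FPKM in control and 2129, 2072 and 2165 FPKM in cKO libraries. The 2 that were higher without the block were Aqp4, the water channel of astrocyte endfeet, and Gfap, the intermediate filament of reactive astrocytes. Aqp4 rose from 54.4 and 54.4 to 89.4, 98.4 and 94.6 FPKM (log2 fold change 0.78 ± 0.0925 SE, unadjusted p = 2.75e-05, adjusted p = 0.175; adjusted p = 0.0187 with the set block, and 0.0187 to 0.732 over all alternatives). Gfap rose from 309 and 263 to 374, 364 and 415 FPKM (log2 fold change 0.43, unadjusted p = 0.00542, adjusted p = 0.955; unadjusted p = 0.0667 without control 2). The study also stained hippocampal sections of young mice for GFAP. It saw no difference between genotypes in intensity or in the number or size of astrocytes. Staining shows protein, whereas the values here are RNA. Mlc1, an endfoot membrane protein, had 156 and 140 FPKM against 172, 174 and 167 FPKM (unadjusted p = 0.0583). With the set as a block that p was 0.0107 (limma's adjusted p = 0.465).

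Neuron markers had a median log2 fold change of -0.08, and 14 of 15 were negative, where 46.3% of all tested genes were. The same number was negative under each of the 3 other scalings, where 48.6 to 62.6% of all tested genes were. An unadjusted p under 0.05 was found for 2, both lower (Nefm and Stmn2, a neurofilament and a microtubule regulator gene, named after their values were seen; 1.99% of all tested genes). Their summed level was 3169 to 3478 FPKM in control and 3022 to 3369 FPKM in cKO libraries. Medians were 0.08 over 12 oligodendrocyte markers (1 with an unadjusted p under 0.05, higher, the myelin gene Opalin, where 2.37% of all tested genes were), 0.03 over 12 microglia and -0.04 over 10 endothelial markers (0 in either direction). With the set block, an unadjusted p under 0.05 in the lower direction was found for 3 neuron markers and for 1 marker each of oligodendrocytes, microglia and endothelium, where 4.02% of all tested genes had one. The summed levels of all 3 lists overlapped between groups. Choroid plexus RNA varied between libraries with overlapping groups, and 0 of the 5 tested of 10 choroid plexus markers had an unadjusted p under 0.05: Ttr, its main transcript, had 157 and 1.33 FPKM in control and 67.9, 589 and 20.7 FPKM in cKO libraries. The part of tissue composition in the differences of the 9 genes was not tested.

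Set against the mean log2 level of the 20 other astrocyte markers in the same library, a description added after the values were seen, the 9 genes differed in direction. Relative to those markers, Slc1a2 was 0.13 higher in the cKO without overlap, whereas Glul and Aldoc were each lower without overlap (-0.11). Of all tested genes, 4.02% were higher and 16.8% lower without overlap by this measure. The remaining 6 overlapped, from -0.09 for Aldh1l1 to 0.18 for Slc1a3. When Aqp4 and Gfap were left out of the reference, leaving 18 markers, Glul (-0.05) and Aldoc (-0.05) overlapped between groups, and Slc1a2 (0.19), Acsbg1 (0.16), Slc4a4 (0.15), S100b (0.12) and Glud1 (0.11) were higher without overlap, as were 8.08% of all tested genes.

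**Figure D4:**
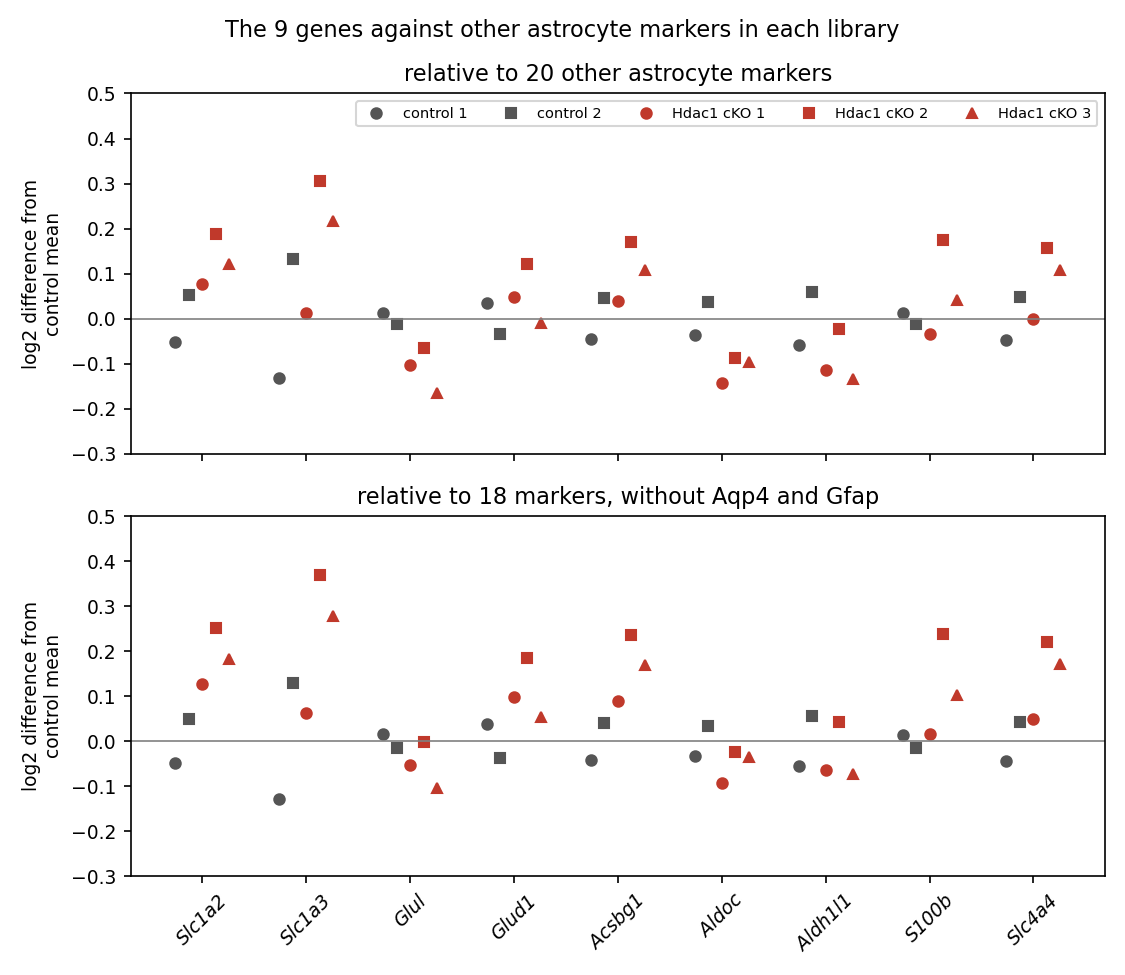
Log2 level of each gene minus the mean log2 level of other astrocyte markers in the same library, with the control mean set to 0 (y axis), in control (gray) and Hdac1 cKO (red) libraries; symbols mark replicates, the upper panel uses 20 markers and the lower panel 18, without Aqp4 and Gfap. Slc1a2 is above both controls in every cKO library in both panels, and Glul and Aldoc are below both controls in the upper panel only.

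Finally, the genes whose centered log2(FPKM + 1) values lay closest to those of the transporters and of Glul over the 5 libraries were sought among 6697 genes of at least 10 FPKM. Nearest to Slc1a2 were Nme2, a nucleoside diphosphate kinase gene (227 and 231 against 261, 264 and 271 FPKM; root mean square difference 0.0128), Acsbg1, itself one of the 9 (0.0146), and Prkaa1, a catalytic subunit gene of AMP-activated kinase (0.0159). Nearest to Slc1a3 were Sox2ot (0.0155), Sarnp (0.0181) and Epb4.1l2 (0.0186), which shared its higher values in set 2. Nearest to Glul were Plekhb2 (0.0136), Gltscr2 (0.0139) and Mgrn1 (0.0149), none of which separated the genotypes. These likenesses over 5 libraries are a description.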

How the data were processed

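Total hippocampal RNA had been made into TruSeq libraries and sequenced by the authors, who aligned reads with TopHat and Bowtie to mm9 and estimated transcript abundance with Cufflinks 2.0.0, per the labels. The deposited values are FPKM per gene symbol, 1 table per library. They keep no counts, and whether fragments were assigned by strand is not given in the sources used here. Depth was estimated from the value of 1 fragment in single-transcript genes of at least 1000 nucleotides and a mean under 0.3 FPKM. That estimate rests on 28 to 75 genes per library, and counting errors derived from it cover counting only.

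FPKM were tested as log2(FPKM + 1) with limma 3.58.1 (lmFit and eBayes with a variance trend, R 4.3.3) in one fit of 2 control and 3 cKO libraries without covariates, for genes whose mean reached 1 FPKM. P-values were two-sided and adjusted by the Benjamini-Hochberg method over all 12740 tested genes. The added 1 FPKM makes the fold changes of low genes too small. The fold change and p threshold (1.5 and 0.05) is the study's, whose test is not named. The script was tested on simulated data. Ratios within a library were compared by two-sided exact permutation tests.

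Libraries were taken as replicates of a group by their labels. The study counts these samples in mice. Libraries were put in 1 set where more than 10% of low genes shared a ratio, within 0.05 on the log2 scale.

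The 9 genes and all gene lists were chosen with earlier results of these data known. Named genes were the 9, Hdac1, Aldoa and other fixed partners, up to 3 genes with the smallest p in each pathway list and among the other astrocyte markers, and the 3 nearest patterns to Slc1a2, Slc1a3 and Glul. The neuron, oligodendrocyte, microglia, endothelial and choroid plexus lists were used for levels and medians; Ttr, Nefm, Stmn2, Opalin and Snora30 are named outside the rule, after their values were seen. A few items that these rules select are not reported here. The listed symbols Pc, Pkm2 and S100c were read as Pcx, Pkm and S100a11. Coordinates and overlaps came from GENCODE on mm9 (NCBIM37), near copies from BLAST 2.17.0 (at least 95% identity over 200 nucleotides) and promoters from RefSeq. Alternatives were the pseudocount, the filter, 3 scalings, no variance trend, the set and replicate blocks and leaving out each library.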

Additional observations from a re-analysis of the deposited data

How the results depend on the processing

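Of 126 log2 fold changes of the 9 genes under 14 alternatives, 124 kept their direction and 8 had an unadjusted p under 0.05, none of them an adjusted p under 0.05. The number of the 9 genes under an unadjusted p of 0.05, 0 in the fit reported, was 2 without the filter (Acsbg1 and Slc4a4), 1 with the replicate block (Slc1a3), 3 with the set block and 0 to 1 with 1 library left out. Their median log2 fold change was 0.063 after rescaling to a common total, against -0.05 over all tested genes. The labels give the replicate numbers no pairing, although libraries 1 and libraries 2 of both groups lay in the same sets. Deviations from the group means correlated at 0.402 for number 1 and 0.269 for number 2 across 12740 genes, with 2 shared numbers, and the count of all genes past the threshold was 133 with the replicate block, in which cKO 3 stands alone and adds nothing to the fold change, 113 without cKO 3 and 84 in the fit reported. That count was 142 with a pseudocount of 0.1, 43 with a minimum mean of 5 FPKM, and 92 to 231 with 1 library left out (231 without control 2, 152 without control 1, 148 without cKO 1). The share of it that was higher, 60.7%, was 41.1% of 124 after rescaling to a common total, 46.8% without control 2 and 45.9% without cKO 1.

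Some differences near 0 changed sign. With 1 library left out, the log2 ratio difference ranged from -0.13 to 0.030 for Slc1a2 to Slc1a3 (above 0 without control 1). Log2 fold changes ranged from -0.086 to 0.00075 for Glul, -0.050 to 0.0069 for Aldh1l1, -0.074 to 0.11 for Kcnj10, -0.13 to 0.18 for Slc1a1, -0.20 to 0.045 for Got2, -0.11 to 0.074 for Slc4a10 and -0.0046 to 0.26 for S100a1. With size factors the value was -0.0062 for Kcnj10, and with quantile normalization it was -0.0097 for Acsl3. After rescaling to a common total they were -0.039 for Slc1a1, -0.055 for Kcnj10 and -0.020 for Acsl3. They were -0.020 for Slc1a1 and -0.012 for Kcnj10 with the replicate block and -0.029 for Slc1a1 with the set block. Without the filter, the unadjusted p was 0.0538 for Slc17a6, 0.0534 for Car2 and 0.0550 for Slc16a7 (0.0502 with a minimum mean of 5 FPKM, which leaves Slc17a6 untested). Without the variance trend it was 0.0564 for Slc2a1, 0.0760 for Car2 and 0.0766 for S100a16. Other genes fell under 0.05 in these settings. Without the filter limma's unadjusted p was 0.0144 for Slc38a1, 0.0248 for S100a6 and 0.0264 for Mlc1. Without the variance trend it was 0.0339 for Mthfd2 and 0.0457 for Shmt1. The cause was not tested. FPKM without counts leave the counting errors resting on an estimated depth, whereas intervals and p-values rest on the spread between libraries as modelled by limma.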
